A study of Mus musculus with 8 samples.

Results

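Large MEF domains fragmented in OSKM are stretches of H3K36me3 that were called as 1 broad peak of 3000 bases or more in untreated mouse embryonic fibroblasts (MEF) and as several separate peaks after doxycycline switched on Oct4, Sox2, Klf4 and Myc, the factors that reprogram cells to pluripotency (OSKM). They were chosen by measured values of these libraries: a MEF peak on chromosomes 1 to 19 with a length of at least 3000 bases that overlapped 3 or more OSKM peaks and had under 70% of its bases inside OSKM peaks. Of 12871 MEF peaks of that length, 3270 met the rule (25.4%, 95% Wilson interval 24.7 to 26.2%), out of 64885 MEF peaks in all. The stretches of a domain that lie between neighbouring OSKM peaks are called breaks here, and the 3270 domains held 10232 of them. Fewer bases inside OSKM peaks and 2 or more breaks per domain follow from the rule and are not findings.

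The cells were i4F MEFs from 1 embryo at embryonic day 13.5, which carry a doxycycline-inducible OSKM cassette in every condition, and they were grown in iPSC medium for 72 h. The 4 conditions were no doxycycline (MEF), no doxycycline with 2 µM vitamin B12 (MEF B12), doxycycline (OSKM) and doxycycline with 2 µM vitamin B12 (OSKM B12). The labels give the doxycycline dose as 1 µg/ml and the study's methods give 1 mg/ml. Each condition had 1 H3K36me3 ChIP–seq library and 1 input library, so that the differences between conditions have no replicate check, no p-value is given, and the intervals cover counting error only. The MEF peaks were called with 32582688 H3K36me3 tags, the MEF B12 peaks with 29046913, the OSKM peaks with 33399267 and the OSKM B12 peaks with 29627886, so that the library in which the domains were broken had the most tags. On chromosomes 1 to 19, the OSKM list held 64364 peaks over 91.8 Mb, and the MEF, MEF B12 and OSKM B12 lists covered 150 Mb, 163 Mb and 163 Mb. A mixed population of induced and refractory cells cannot be told apart from a uniform change in bulk libraries.

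H3K36me3 is the trimethylated form of lysine 36 of histone H3. It is laid down mainly by SETD2, which travels with elongating RNA polymerase II, so that the mark covers the bodies of transcribed genes and increases towards their 3′ end. The mark is read by proteins that keep transcription from starting inside gene bodies. The methyl group comes from S-adenosylmethionine, whose regeneration depends on methionine synthase, an enzyme that uses vitamin B12 as its cofactor. The question addressed was where along the gene the OSKM breaks lay, which genes held them, and whether OSKM B12 peaks covered them.

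The DNA at the edge of a break is shown for 6 domains that the results turn on, so that a reader can see what kind of sequence lies on each side. Each line gives 200 bases of mm10 (GRCm38) in the direction of transcription, with the bases inside an OSKM peak in lower case and the bases inside the break in capitals. The first is a break in Cyfip1, which had the most breaks, and those of Cdh11 and Pnpt1 are from the domains with the most break bases. The window of Gdap2 holds a whole exon of 77 bases, which begins just before the break, with intron on each side. The other windows hold no exonic base. The break of Drosha was not filled in full by either B12 library, and the other 5 were filled in full by both.
Cyfip1, chr7:55903395-55903594, plus strand: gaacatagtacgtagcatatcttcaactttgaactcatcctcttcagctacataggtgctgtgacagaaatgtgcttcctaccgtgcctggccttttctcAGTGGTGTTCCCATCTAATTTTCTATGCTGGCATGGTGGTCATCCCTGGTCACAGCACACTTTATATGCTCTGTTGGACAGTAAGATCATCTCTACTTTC
Cdh11, chr8:102675564-102675763, minus strand: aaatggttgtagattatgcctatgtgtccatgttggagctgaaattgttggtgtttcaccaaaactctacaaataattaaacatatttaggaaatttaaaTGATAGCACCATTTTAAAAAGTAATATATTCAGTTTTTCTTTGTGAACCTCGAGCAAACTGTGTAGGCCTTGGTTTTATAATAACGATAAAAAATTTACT
Pnpt1, chr11:29138764-29138963, plus strand: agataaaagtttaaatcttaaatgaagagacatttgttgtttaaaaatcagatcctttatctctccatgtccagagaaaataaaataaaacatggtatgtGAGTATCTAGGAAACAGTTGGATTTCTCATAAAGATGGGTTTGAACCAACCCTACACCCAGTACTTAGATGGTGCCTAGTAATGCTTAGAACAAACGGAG
Gdap2, chr3:100190790-100190989, plus strand: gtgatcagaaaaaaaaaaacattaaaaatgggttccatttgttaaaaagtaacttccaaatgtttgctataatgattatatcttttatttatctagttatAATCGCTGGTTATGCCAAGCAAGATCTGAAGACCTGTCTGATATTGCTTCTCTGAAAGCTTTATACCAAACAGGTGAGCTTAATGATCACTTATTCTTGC
Rad17, chr13:100646300-100646499, minus strand: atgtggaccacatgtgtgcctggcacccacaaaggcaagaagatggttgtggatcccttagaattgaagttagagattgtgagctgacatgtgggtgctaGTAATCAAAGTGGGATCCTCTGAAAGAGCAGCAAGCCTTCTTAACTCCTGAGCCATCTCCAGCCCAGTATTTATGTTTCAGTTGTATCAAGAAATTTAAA
Drosha, chr15:12848883-12849082, plus strand: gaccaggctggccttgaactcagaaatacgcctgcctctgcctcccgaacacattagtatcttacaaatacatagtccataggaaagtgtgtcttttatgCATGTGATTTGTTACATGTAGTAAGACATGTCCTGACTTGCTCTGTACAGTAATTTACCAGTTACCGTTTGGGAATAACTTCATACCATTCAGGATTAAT
The capitals of Cyfip1 and of Rad17 had a GC content of 44.0% and 40.0%, against 45.0% and 48.0% in the lower case bases. In Pnpt1 and Gdap2 the capitals were richer in GC (42.0% and 40.0%) than the lower case bases (26.0% and 22.0%), so that single windows did not share a direction.

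Over the domains as a whole, the OSKM peaks left 55.5% of the 25.9 Mb of domain bases. Breaks took 31.4% of the bases, lost 5′ ends 6.61% and lost 3′ ends 6.59%, so that 70.4% of the bases outside OSKM peaks lay in breaks and not at the ends of the domains. The breaks reached 5043 bases with a median of 589 bases, and 25.1% were 1000 bases or longer. The lower limit is set by the peak caller, which joins stretches up to 300 bases apart. A domain held a median of 3 breaks and at most 19. There were 1624 domains with 2 breaks, 766 with 3, 404 with 4, and 476 with 5 or more. The OSKM pieces had a median length of 827.5 bases, and 58.8% of the 13502 pieces were under 1000 bases. Their median fold enrichment over input was 2.64 and their median −log10 q was 2.31, beside a median −log10 q of 2.23 over all OSKM peaks.

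Coverage of these domains by the other lists was high in both B12 libraries. The share of a domain inside OSKM peaks was 13.8% at the lowest, 56.1% at the median and 69.99% at the highest, as the rule requires. The share inside OSKM B12 peaks was 36.6% at the lowest, 95.2% at the median and 100% at the highest. The share inside MEF B12 peaks was 20.7% at the lowest, 95.9% at the median and 100% at the highest. The medians of the B12 lists thus lay close together. Since the rule caps the OSKM share, its distance from the other lists follows in large part from the choice of domains and is not read as a result. At least 90% of the bases were inside OSKM B12 peaks in 2411 domains and inside MEF B12 peaks in 2551, whereas 58 and 44 domains were under 70% in these lists.

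**Figure D1:**
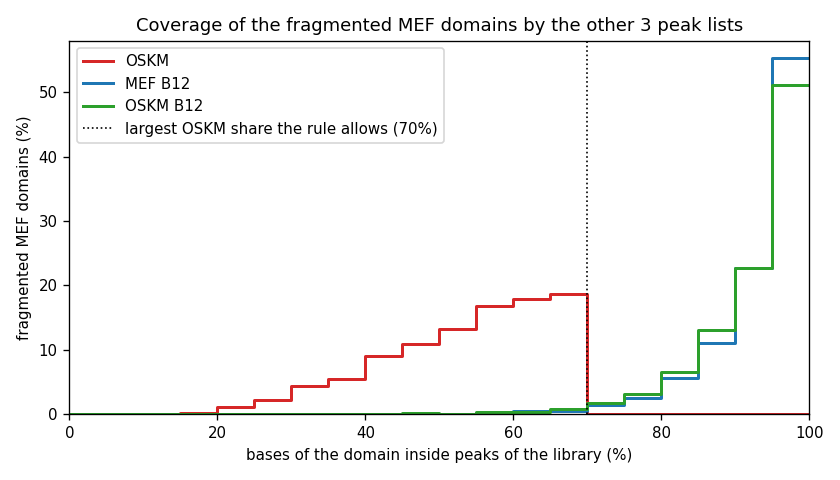
Share of the bases of each fragmented MEF domain (x axis, %) inside peaks of OSKM (red), MEF B12 (blue) and OSKM B12 (green), as the percentage of the 3270 domains in bins of 5 percentage points (y axis). The OSKM curve ends at 70% by the rule, and the medians of MEF B12 and OSKM B12 lie at 95.9% and 95.2%.

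The same rule was applied with the B12 lists in the place of the OSKM list. Only 134 of the 12871 large MEF domains met it with OSKM B12 peaks (1.04%) and 106 with MEF B12 peaks (0.824%), against 25.4% with OSKM peaks. In the opposite direction, 5 of 6920 large OSKM domains were fragmented in MEF (0.0723%). The breaks of these smaller sets lay in other libraries' peaks less often. Of the 299 breaks of the 134 domains, 146 were inside MEF B12 peaks in full (48.8%, 43.2 to 54.5%) and 14 inside OSKM peaks (4.68%, 2.81 to 7.70%).

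Of the 10232 OSKM breaks, 8631 were inside OSKM B12 peaks from end to end (84.4%, 83.6 to 85.0%), and 8907 were inside MEF B12 peaks from end to end (87.1%, 86.4 to 87.7%). Of the 12896 breaks of all other large MEF domains, OSKM B12 filled 90.3% and MEF B12 filled 90.7%. The breaks of the fragmented domains were filled in full somewhat less often than this pooled background, whose classes differed. In domains with 70% or more of bases in OSKM peaks, OSKM B12 filled 93.1% of 10677 breaks and MEF B12 filled 93.1%. In domains under 70% with fewer than 3 OSKM peaks, OSKM B12 filled 76.6% of 2219 breaks and MEF B12 filled 79.4%. The fragmented domains thus lay between these classes. Since a break was chosen for lying outside OSKM peaks and inside a MEF peak, it can lie inside another library's peaks from that choice alone. Both B12 libraries filled 7873 of the breaks (76.9%), OSKM B12 alone filled 758 (7.41%), MEF B12 alone filled 1034 (10.1%), and neither filled 567 (5.54%) in full. Counted in bases, 91.9% of the break bases were inside OSKM B12 peaks and 93.3% inside MEF B12 peaks, beside 97.8% and 98.1% of the domain bases kept in OSKM peaks. Among the 10232 breaks, 55 had no base in OSKM B12 peaks (0.538%), and 1 had no base in the peaks of either B12 library. In 1978 of 3270 domains every break was filled by OSKM B12 (60.5%, 58.8 to 62.2%), and in 2162 every break was filled by MEF B12 (66.1%, 64.5 to 67.7%).

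Filling in full was less frequent in longer breaks. OSKM B12 peaks filled 95.1% of the 2462 breaks under 400 bases (94.2 to 95.9%). They filled 83.4% of the 2452 breaks of 600 to 999 bases (81.8 to 84.8%) and 51.9% of the 462 breaks of 2000 bases or more (47.4 to 56.5%). MEF B12 peaks filled 96.0%, 86.2% and 58.7% of the same breaks. These intervals do not overlap between the length classes. Breaks of other large domains with these lengths were filled by OSKM B12 in 97.0%, 87.4% and 46.3% (the last of 246 breaks). The fragmented domains were thus below the others for the shorter breaks. For the longest the order was reversed, and the value of the others was just below the interval of the fragmented domains. No interval is given for the others. With filling of at least 50% of a break, OSKM B12 filled 96.3% of the breaks under 400 bases (95.5 to 97.0%) and 97.8% of those of 2000 bases or more (96.1 to 98.8%). Of the latter, 240 were filled in full and 222 in part. Breaks that OSKM B12 filled had a median length of 545 bases, and those it did not fill in full had a median length of 992 bases.

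**Figure D2:**
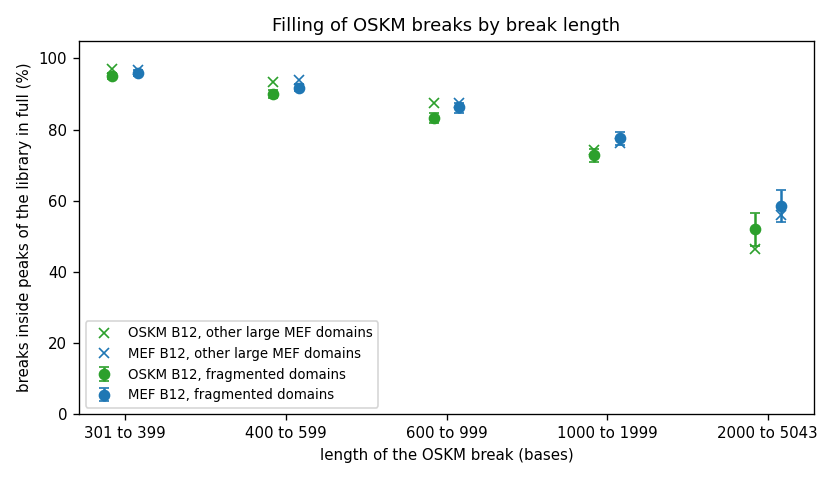
Percentage of OSKM breaks that lay inside peaks of OSKM B12 (green) or MEF B12 (blue) from end to end (y axis) by the length of the break in bases (x axis). Circles are breaks of the fragmented domains with 95% Wilson intervals and crosses are breaks of the other large MEF domains. From the shortest to the longest class the OSKM B12 values go from 95.1% to 51.9%.

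A filled break does not mean that the whole domain was 1 peak again. A single OSKM B12 peak spanned at least 95% of 1372 domains (42.0%, 40.3 to 43.7%), and a single MEF B12 peak spanned 1519 (46.5%, 44.7 to 48.2%). Among all other large MEF domains these shares were 60.6% and 61.0%. They were 75.7% and 73.8% in domains with 70% or more of bases in OSKM peaks. In domains under 70% with fewer than 3 OSKM peaks they were 37.0% and 41.0%, so that the fragmented domains lay between these classes. The ends were filled less often than the breaks: 57.7% of the 2412 lost 5′ ends and 57.3% of the 2345 lost 3′ ends were inside OSKM B12 peaks in full. MEF B12 filled 59.5% and 61.8% of them.

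Along the gene, breaks followed the domains. Of the 3270 domains, 3146 lay at least in part in a protein-coding gene body (96.2%), and 2950 touched exactly 1. The 10232 breaks had their midpoint in the gene body in 9366 cases, at a median of 67.2% of its length and at a median of 30.2 kb from the transcription start site. Of the 9366, 300 lay within 5 kb of the start site (3.20%), and 129 breaks touched the first intron (1.31% of 9853). Within gene bodies the first intron held 1.26% of the break bases, 1.16% of the kept bases and 1.54% of all domain bases. The domains themselves thus held few bases there. Upstream of the midpoint of the gene body lay 30.2% of the break bases, 30.1% of the bases kept in OSKM peaks and 30.9% of all domain bases. Break bases made up 30.2% of the domain bases in the first of 10 equal parts of the gene body, 32.3% in the middle ones and 32.1% in the last, so that their share was nearly even from 5′ to 3′. The lost 5′ ends did change along the gene, from 17.3% of domain bases in the first part to 3.23% in the last, whereas lost 3′ ends went from 4.01% to 7.56%. As a result 48.5% of the domain bases were kept in the first part and 57.1% in the last. Only bases inside the gene body count here, which held 95.7% of the lost 5′ end bases and 74.7% of the lost 3′ end bases. By place in the domain instead, 56.2% of the bases in the first of 10 parts lay outside OSKM peaks. In the last part it was 57.2%, so that the ends of the domain were lost alike.

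**Figure D3:**
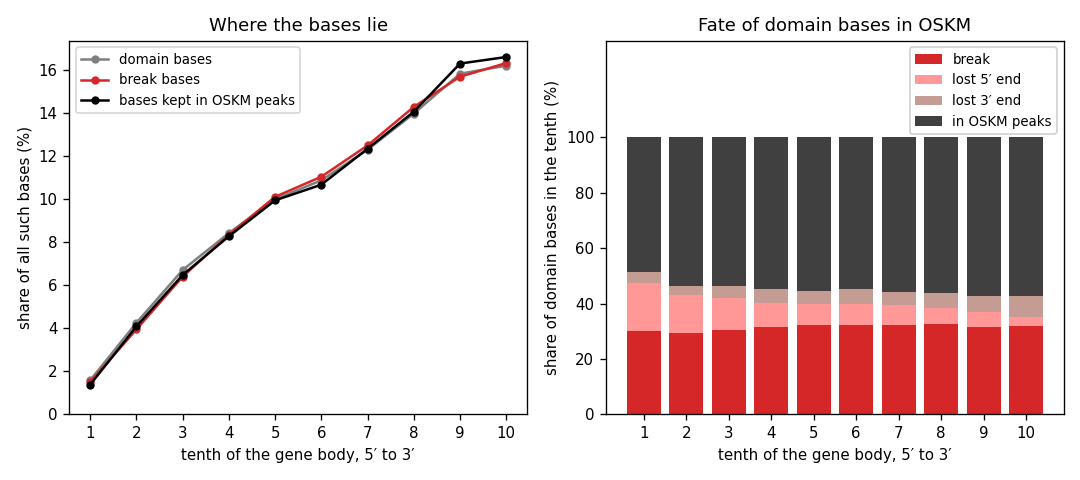
Left, the share of all domain bases (grey), break bases (red) and bases kept in OSKM peaks (black) in each of 10 equal parts of the gene body from 5′ to 3′. Right, the domain bases of each part divided into breaks, lost 5′ ends, lost 3′ ends and bases in OSKM peaks, in per cent. Breaks stay close to 30% of domain bases in every part, and lost 5′ ends go from 17.3% to 3.23%.

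Filling was similar along the gene. In the first of 5 equal parts of the gene body OSKM B12 filled 83.2% of 507 breaks (79.7 to 86.2%), and in the last part 84.6% of 3013 breaks (83.2 to 85.8%). Of the breaks upstream of the midpoint, 2386 of 2839 were filled (84.0%), and of those downstream 5527 of 6527 (84.7%). These intervals overlap, and the median length of the breaks was 587 and 584 bases in the first and the last part.

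Breaks held fewer exonic bases than the pieces between them. Exons made up 9.74% of the break bases and 15.4% of the kept bases within gene bodies, and 63.4% of 9853 breaks lay wholly inside 1 intron. The breaks and the kept bases of all other large domains differed in the same direction, with 10.9% and 20.2%, so that this difference was not particular to the fragmented domains. In addition, the break bases had a GC content of 41.3% against 44.7% in kept bases, 8.89 against 11.6 CpG dinucleotides per kb, and 27.7% against 20.7% of bases that are repeat-masked in the assembly. Within introns alone the GC content was 41.1% in breaks and 44.1% in kept bases, and the masked share was 29.5% and 23.2%. In all other large domains the GC content was 42.8% in breaks and 47.6% in kept bases. The CpG dinucleotides per kb were 9.64 and 13.6 there, and the masked shares 29.9% and 18.7%. The sequence differences were thus not particular to the fragmented domains either. How far read alignment in repeats and at low GC contributes was not tested. Of the 3220 breaks that touched an exon, OSKM B12 filled 83.0% (81.6 to 84.2%), and of the 6242 wholly intronic breaks it filled 85.2% (84.3 to 86.1%), where the former were longer, with a median of 732 against 541 bases.

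The fragmented domains were most frequent at middle lengths and had a lower MEF signal than the domains that stayed in OSKM peaks. The rule was met by 14.7% of the 5318 domains of 3000 to under 5000 bases, by 36.8% of the 4793 of 5000 to under 10000 bases and by 30.0% of the 2178 of 10000 to under 20000 bases. It was met by 11.99% of the 567 domains of 20000 to under 50000 bases and by 0 of 15 longer ones, which allows a share of up to 20%. A short domain has little room for 3 separate OSKM peaks, so the low share of the shortest class partly follows from the rule. Over all large domains the median OSKM share rose with length. It was 55.9% at 3000 to under 5000 bases and 83.9% at 20000 to under 50000 bases. The median fold enrichment of the domain in MEF was 3.29 in the 3270 fragmented domains, 4.00 in the 5862 domains with 70% or more of bases in OSKM peaks, and 3.09 in the 3739 domains under 70% with fewer than 3 OSKM peaks. In domains of 10000 to under 20000 bases it was 3.51 in the fragmented and 4.24 in the other domains. The part of the MEF signal in the breaks was not tested.

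Pileup was compared per 1000000 tags, as the mean over the peak bases of a domain. In fragmented domains the median was 0.572 for MEF, 0.645 for MEF B12, 0.457 for OSKM and 0.649 for OSKM B12. In domains with 70% or more of bases in OSKM peaks the values were 0.688, 0.776, 0.510 and 0.811 for the same libraries. A whole-peak mean gives no level inside a break. Over the 13.8 Mb of the fragmented domains that were inside peaks of all 4 libraries, the mean was 0.598 for MEF, 0.680 for MEF B12, 0.471 for OSKM and 0.687 for OSKM B12. On these shared bases the OSKM value was 0.788 of the MEF value, the OSKM B12 value was 1.46 times the OSKM value, and the MEF B12 value was 1.14 times the MEF value. Each base carries the mean of its whole peak here, so that the MEF value also takes in break bases. Since the domains were chosen by OSKM peaks, the low OSKM value is not read as a result about them. OSKM was also the lowest in the domains with 70% or more of bases in OSKM peaks. Since the libraries carry no spike-in, a genome-wide difference in the mark and a difference in the efficiency of the immunoprecipitation cannot be told apart.

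The 126 members with 69% to under 70% of bases in OSKM peaks had a median OSKM B12 share of 97.3%, and the 131 domains with 70% to under 71% that were left out had 98.7%. With exactly 3 OSKM peaks 1624 domains were members at a median OSKM share of 53.9%, and with exactly 2 peaks 2219 were not at a median of 48.6%. There were 33 members of 3000 to under 3100 bases, and 23 domains of 2900 to under 3000 bases met the rest of the rule. The share of large domains that met the rule ranged from 19.8% on chromosome 7 to 30.8% on chromosome 16.

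The domain with the most breaks lay in Cyfip1, a subunit of the WAVE complex that controls branched actin. It covered chr7:55885177-55924625 (39449 bases), from 43.1 to 82.6 kb downstream of the start site. Its OSKM share was 69.15%, with 20 peaks and 19 breaks of 307 to 991 bases, of which 2 touched an exon. Its MEF B12 share was 99.6% and its OSKM B12 share 98.6%. OSKM B12 peaks filled 18 of the 19 breaks and MEF B12 peaks all 19. The break that OSKM B12 did not fill in full lay in intron 11, 49.4 kb from the start site, where 508 of its 550 bases were outside OSKM B12 peaks. The scaled pileup was 0.673 for MEF, 0.758 for MEF B12, 0.495 for OSKM and 0.783 for OSKM B12.

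Cdh11 encodes cadherin-11, an adhesion protein of mesenchymal cells. Its domain (chr8:102631098-102677353, 46256 bases) was the longest of all fragmented domains and had the most break bases, 16002 in 14 breaks. The OSKM share was 64.5%, the MEF B12 share 97.6% and the OSKM B12 share 98.7%. The longest break, of 3838 bases, lay in intron 8, 130 kb from the start site, and both B12 libraries filled it. OSKM B12 filled 13 breaks and MEF B12 filled 11, and the breaks that each left unfilled were different ones. The break at 119 kb was 56.5% inside OSKM B12 peaks and fully inside MEF B12 peaks, and the break at 143 kb was fully inside OSKM B12 peaks and 86.1% inside MEF B12 peaks.

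Several domains with many breaks lay under 1 OSKM B12 peak over at least 95% of their bases. Gdap2, a gene of the ganglioside-induced differentiation-associated group, held 11 breaks in 27545 bases (chr3:100180600-100208144). Its OSKM share was 51.3%, and a single OSKM B12 peak covered 100% of it, whereas 2 MEF B12 peaks covered 96.2% and left the break at 27.2 kb 37.3% filled. Rad17, which loads the checkpoint clamp at damaged DNA, held 14 breaks in 27772 bases (chr13:100620670-100648441). Its OSKM share was 56.2%, and 1 peak covered it fully in each B12 library. Nsd1, a methyltransferase that places dimethylation on H3K36, held 11 breaks in 28910 bases (chr13:55289287-55318196). Its OSKM share was 67.6% and both B12 libraries covered 100%.

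The most break bases without an OSKM B12 peak were in Rdx, Drosha, Crebbp and Svep1. In Rdx, the radixin gene that links actin to the cell membrane, 2465 of 6918 break bases were outside OSKM B12 peaks (chr9:52071463-52090326). OSKM B12 filled 3 of its 7 breaks and MEF B12 filled 5. The break of 2506 bases in intron 10, 31.6 kb from the start site, was 39.9% inside OSKM B12 peaks and 28.1% inside MEF B12 peaks, so that both lists had a gap there. In Drosha, the nuclear microRNA-processing enzyme, OSKM B12 filled 4 of 9 breaks and MEF B12 filled 7, and none of the 9 touched an exon. In Crebbp, which encodes the acetyltransferase CBP, the domain of 8592 bases had an OSKM share of 55.0%, a MEF B12 share of 66.6% and an OSKM B12 share of 71.6%, so that both B12 lists were low. In Svep1, an extracellular matrix gene, OSKM B12 filled 2 of 5 breaks and MEF B12 filled 3.

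**Figure D4:**
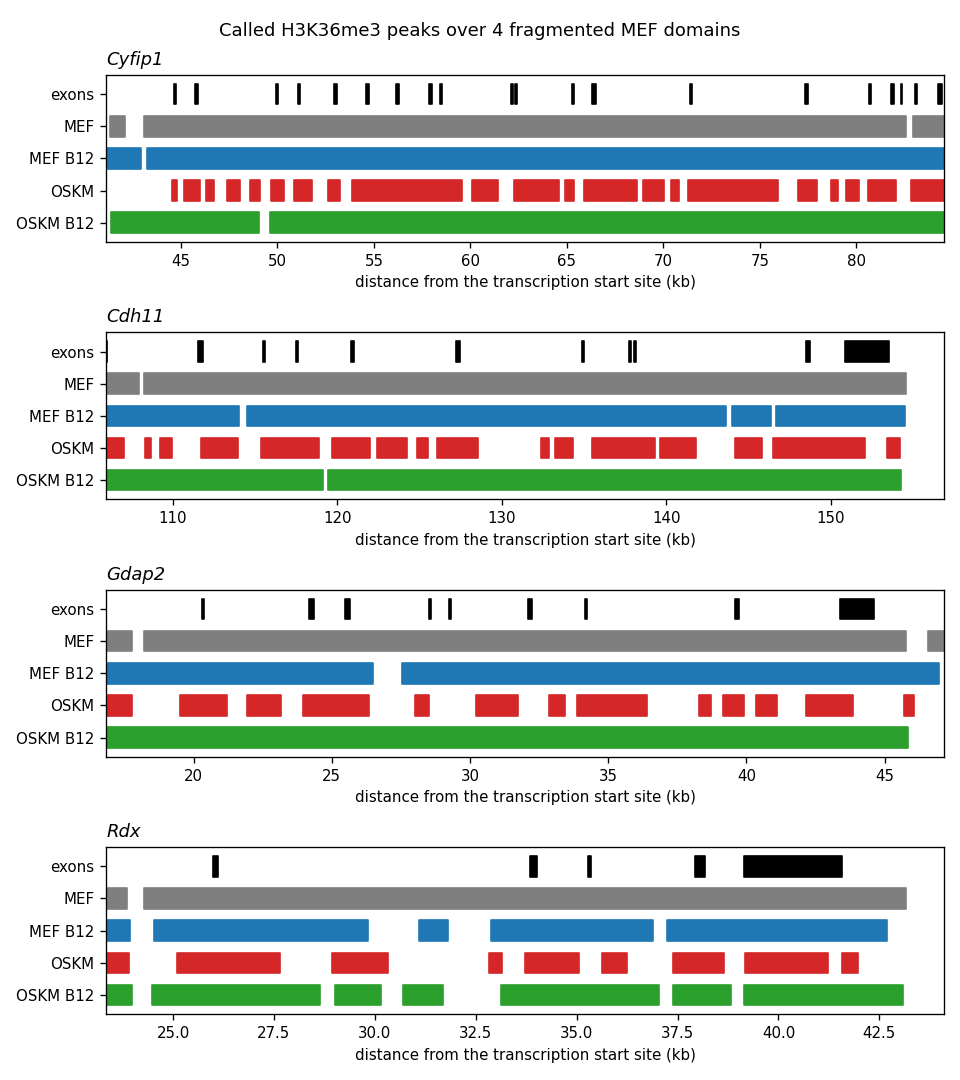
Called H3K36me3 peaks of the 4 libraries and exons of the gene over the fragmented domains of Cyfip1, Cdh11, Gdap2 and Rdx, with the distance from the transcription start site in kb on the x axis. The OSKM track is broken into 20, 15, 12 and 8 peaks, and the OSKM B12 track shows 2, 2, 1 and 6 peaks over the same domains.

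Rbms1 (18 breaks), Htt (15 breaks), Pak2 (13 breaks), Pnpt1 (12 breaks), Col12a1 (11 breaks) and Cdk12 (11 breaks) had OSKM shares from 44.6% in Pnpt1 to 67.6% in Htt. Their OSKM B12 shares ran from 91.2% in Col12a1 to 97.9% in Htt, and their MEF B12 shares from 94.9% in Pnpt1 to 100% in Pak2 and Col12a1. In Col12a1, which encodes a fibril-associated collagen, MEF B12 filled all 11 breaks and OSKM B12 filled 8. In Pak2, a kinase downstream of RAC and CDC42, these counts were 13 and 10. The 4 members with the highest MEF fold enrichment were shorter. Ddx39 (5.88), Mex3d (5.79), Cog1 (5.04) and Sfr1 (5.03) held 2 or 3 breaks each at OSKM shares from 64.3% to 69.6%, close to the threshold. The domains of Ddx39, Cog1 and Sfr1 each touched a second gene.

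Wdr5, a core subunit of histone H3K4 methyltransferase complexes, carried 3 large MEF domains, of which 1 was fragmented. That domain (chr2:27522193-27532157, 9965 bases) lay 7.04 to 17.0 kb from the start site and held 4 OSKM peaks at an OSKM share of 69.2%. Its 3 breaks of 1719, 802 and 418 bases were intronic. Both B12 libraries filled all 3, each with 1 peak over the domain. The domain upstream of it had an OSKM share of 66.6% with 1 OSKM peak and the one downstream 97.3%, so that the coverage by OSKM peaks was highest at the 3′ end of the gene.

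At the level of genes, 2267 of 6606 protein-coding genes with a large MEF domain held a fragmented one (34.3%, 33.2 to 35.5%). Of these, 1656 held 1 fragmented domain, 438 held 2, 109 held 3 and 64 held 4 or more. The ubiquitin ligase genes Herc2 and Mycbp2 held 7 each, and Mtr held 6 together with Vps13d, Uggt1, Xrn1, Ubr1 and Mdn1. Genes with a fragmented domain were longer, with a median body of 41979 bases against 20221 bases in genes with large domains of which none was fragmented. The share of genes was 17.2% of 2598 genes under 20000 bases and 61.2% of 469 genes of 100000 to under 200000 bases. Among the 160 genes of 200000 bases or more it was 51.25%. Per domain the share was 15.9%, 33.0% and 29.1% in these classes.

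The gene groups below were chosen with earlier results of these data known and are described by their counts beside 34.3% of all genes. In the group of H3K36 methyltransferases, demethylases, readers and elongation factors, 11 of 32 genes with a large domain held a fragmented one (34.4%, 20.4 to 51.7%), which is the background share. They were Ash1l, Cdc73, Dnmt3a, Hdgfl2, Iws1, Kdm2a, Nsd1, Nsd3, Psip1, Setd2 and Zmynd11. In Setd2, the gene of the main H3K36me3 writer, 3 domains were fragmented, at OSKM shares of 57.2%, 69.8% and 58.4%, and OSKM B12 filled all 6, 2 and 2 of their breaks. In Ash1l, another H3K36 methyltransferase, a domain of 18221 bases held 7 breaks at an OSKM share of 53.3%, and 6 were filled by OSKM B12. In Psip1, whose product LEDGF reads the mark, a domain of 27523 bases held 10 breaks at 69.9%, and 9 were filled. Over the group OSKM B12 filled 76 of 88 breaks (86.4%) and MEF B12 82 (93.2%).

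In the group of vitamin B12, methionine and folate genes, 5 of 16 genes held a fragmented domain (31.2%, 14.2 to 55.6%), namely Mmadhc, Mtr, Mut, Tcn2 and Tyms. Mtr encodes methionine synthase, the B12-dependent enzyme that remakes methionine. Its 6 fragmented domains lay on chromosome 13 between 12196045 and 12250406, at OSKM shares from 33.2% to 64.7%. Their OSKM B12 shares ran from 91.1% to 100% and their MEF B12 shares from 85.6% to 100%. In Mut, the gene of the B12-dependent methylmalonyl-CoA mutase, 1 domain of 3761 bases had an OSKM share of 47.4%, a MEF B12 share of 58.5% and an OSKM B12 share of 81.6%. In Tcn2, which encodes the blood carrier of B12, and in Mmadhc, which directs B12 inside the cell, OSKM B12 filled both breaks of 1 domain. In Tyms, the thymidylate synthase gene, it filled 3 of 4 breaks.

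By share of genes, ubiquitin ligases and translation genes lay furthest from the background. Ubiquitin ligases and deubiquitinases held a fragmented domain in 18 of 29 genes (62.1%, 44.0 to 77.3%), among them Herc2 and Usp34, and their median body was 75558 bases. Genes of the actin cytoskeleton and of cell-substrate junctions did so in 20 of 41 (48.8%, 34.3 to 63.5%), among them Itgb1, Macf1 and Tns3, at a median of 72714 bases. Translation and protein folding genes did so in 4 of 30 (13.3%, 5.31 to 29.7%), which were Abce1, Eif2ak4, Eif4g3 and Eif5b, at a median of 14975.5 bases. Splicing and RNA processing genes did so in 8 of 38 (21.1%, 11.1 to 36.3%), at a median of 21858 bases. Gene length moved with these shares, and its part was not tested. Membrane traffic and microtubule motors held one in 16 of 34 genes (47.1%, 31.5 to 63.3%), and chromatin regulators tied to pluripotency or to barriers against reprogramming in 11 of 35 (31.4%, 18.6 to 48.0%). The latter included Eed, with 9 breaks all inside 1 OSKM B12 peak, and Kdm1a, Ehmt1 and Smarca4.

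Fibroblast extracellular matrix genes served to check the cell type. Of 43 listed genes on chromosomes 1 to 19, 41 carried a large MEF domain, among them Col1a1, Col1a2, Col3a1, Fn1 and Postn, whereas the pluripotency genes Nanog, Pou5f1, Sox2, Esrrb and Sall4 carried none. The absence of a large domain does not mark a cell type by itself, since Snai2 and Twist1, which are mesenchymal factors, and the actin genes Acta2, Tagln and Actg1 carried none either. Its presence does not do so either. A large domain was carried by 38 of 40 splicing and RNA processing genes and 30 of 34 translation and protein folding genes. Among all protein-coding genes 6606 of 20721 carried one. The check therefore does not settle the cell type. A fragmented domain was found in 14 of the 41 matrix genes (34.1%, 21.6 to 49.5%). They included Col12a1, Col4a1, Col16a1, Dcn and Lum, but not Col1a1, Col1a2, Col3a1 or Fn1. OSKM B12 filled 75 of the 94 breaks in matrix genes (79.8%) and MEF B12 filled 86 (91.5%). Of genes tied to early steps of reprogramming, 7 of 14 with a large domain held a fragmented one (interval 26.8 to 73.2%), namely Nfix, Prrx1, Runx1, Tead1, Yap1, Zeb1 and Zeb2. In Zeb1, a factor that keeps the mesenchymal state, a domain of 18090 bases held 7 breaks at an OSKM share of 57.6%. OSKM B12 filled 4 of them and MEF B12 filled 6. In Prrx1, a transcription factor of mesenchymal cells, OSKM B12 filled all 6 breaks of 1 domain and MEF B12 filled 5. The study's own list of genes with cryptic transcription, chosen on RNA from the same kind of cells and so no independent evidence, held a fragmented domain in 336 of 899 genes (37.4%, 34.3 to 40.6%).

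**Figure D5:**
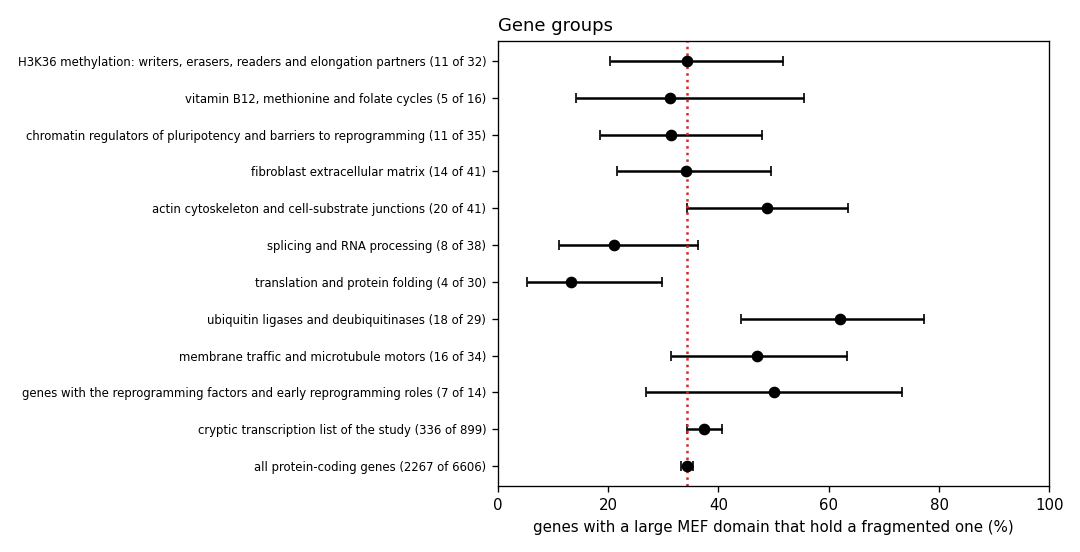
Percentage of the genes with a large MEF domain that hold a fragmented one (x axis) in each gene group (rows, with counts), with 95% Wilson intervals. The dotted line marks all protein-coding genes at 34.3%, and ubiquitin ligases and deubiquitinases (62.1%) and translation and protein folding genes (13.3%) lie furthest from it.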

How the data were processed

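H3K36me3 was measured by ChIP–seq in 4 conditions with 1 library and 1 input each, and conditions were taken from the sample labels. Bowtie (0.12.9 in the submitters' processing notes) was used by the authors for alignment to mm10, with each read kept in at most 1 position. Per the file headers, duplicates had been removed, and MACS2 2.2.6 was run in broad mode on each library against its own input, with q-value cut-offs of 0.05 and 0.1 and an effective genome size of 3209286105. The deposited pileup is a coverage signal (extended fragments per base, averaged over a peak) and was expressed per 1000000 tags here. The authors' fold enrichment is the ratio between that pileup and the input around it. The deposited significance values are −log10 transformed, for both the p-value and the q-value of a broad peak. The labels name the antibody target as H3K3me3 in the protocol and as H3K36m3 in the immunoprecipitation field.

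Overlaps, breaks and filling were computed with Python 3.11, numpy 2.4.6, pandas 2.3.3 and scipy 1.17.1, where 1 shared base counted as overlap. The interval code was tested on simulated data. Gene bodies were the longest protein-coding transcript of each gene in GENCODE release M21, and a domain was given to the gene with which it shared the most bases. Transcripts of support level 5 were used only for genes without another, and 1 read-through model of over 3 Mb was left out, after such transcripts had been seen to take up the domains of other genes. Sequences were read from the RefSeq copy of GRCm38. Genes with near-identical copies were not treated apart.

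The members and gene lists were chosen with earlier results of these data known. Domains named in the text were the 6 with the most breaks, the 6 with the most break bases, the 4 with 3 or more breaks, all filled, under 1 OSKM B12 peak and the most break bases, the 4 with the most unfilled break bases, the 4 with the highest MEF fold enrichment, Wdr5, and examples of the lists with the most break bases. Some domains that this rule names are not reported here. Setd2, Mut, the other domains of Mtr and the genes with the most fragmented domains were named after their values had been seen, as were the genes that carry or lack a large domain in the cell type check. No p-value was computed. At the depth of 29046913 to 33399267 tags, a break is a stretch with no enrichment detectable, which is not the same as an absent mark. The alternatives were stricter peak lists, equal numbers of peaks, joined peaks, other limits of the rule, other definitions of filling and other gene sets. Chromosomes X and Y and unplaced scaffolds were left out of the main counts. Reads outside peaks were not used here.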

Additional observations from a re-analysis of the deposited data

Results flagged for a closer look

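Chromosome X was outside the rule, and its domains were counted in the same way because they are data that no comparison above uses. Of 224 large MEF domains on chromosome X, 70 met the other parts of the rule (31.25%, 25.5 to 37.6%), against 25.4% on chromosomes 1 to 19. OSKM B12 peaks filled 205 of their 235 breaks in full (87.2%, 82.4 to 90.9%). Under 70% of the bases were inside OSKM peaks in 88.8% of the large domains on chromosome X, against 54.5% on the autosomes, and 129 of those domains had fewer than 3 OSKM peaks. There was 1 library per condition, and the difference was not tested.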

How the results depend on the processing

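The reported counts and shares were 3270 fragmented domains, 84.4% of breaks filled in full by OSKM B12, 87.1% by MEF B12, 42.0% of domains spanned by 1 OSKM B12 peak, 30.2% of break bases upstream of the gene midpoint and 9.74% of break bases in exons. Shares are listed here where they left the 95% interval of the reported value, for which the last 2 were given the number of breaks as their n, and counts where they moved by over 1.5 times. A −log10 q of at least 2 in all lists gave 1925 domains and 85.9%, 88.2%, 45.3%, 27.3% and 8.81% for the shares in that order. A −log10 q of at least 5 left 2166 of the 64364 OSKM peaks and 7520 large MEF domains, and with them 9 domains with 19 breaks and shares of 100%, 94.7%, 100%, 21.6% and 3.84%. Joining peaks at most 1 kb apart gave 1822 domains and 87.4%, 89.0%, 54.1%, 31.6% and 7.84%. An OSKM share under 60% gave 2074 domains and 81.2%, 84.5% and 36.5% for the first 3 shares, and a share under 80% gave 86.6%, 88.7% and 48.0%. A minimum of 2 OSKM peaks gave 5489 domains and fillings of 83.0% and 85.7%. A minimum of 4 gave 1646 domains, fillings of 85.4% and 87.8%, 39.4% spanned and 29.2% upstream of the midpoint. A minimum length of 5000 bases gave 39.9% spanned. With breaks counted as filled at 90% of their bases OSKM B12 filled 85.0%. At 50% the 2 libraries filled 94.7% and 95.8%, and at 1 base 99.5% and 99.6%. Among breaks of at least 500 bases they filled 78.5% and 82.2%, and among those of at least 1000 bases 68.98% and 74.2%. Domains that touched 1 gene body gave an exonic share of 9.09%, and lost ends counted with the breaks gave 31.9% upstream of the midpoint and 10.5% in exons. The cause of these shifts was not tested. In all but the setting of −log10 q of at least 5, MEF B12 filled at least as many breaks as OSKM B12. The other settings, among them a fold enrichment of at least 2, equal numbers of peaks, an overlap of 100 bases and a minimum length of 2000 bases, stayed within these limits. Equal numbers of peaks left the OSKM list unchanged, since it was the shortest. A fold enrichment of at least 2 left 64352 of the 64364 OSKM peaks. Little could move under either setting, so that they say little about how stable the results are. The gene models without regard to support level were an alternative chosen after seeing the data and also stayed within them. No paired analysis was possible because only 1 library was made for every condition. The depth limits what can be called a break, since a stretch just under the threshold of the caller is counted as lost.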

Other observations

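The rule was also applied to the large domains of the B12 libraries. Of 13779 large MEF B12 domains, 3994 were fragmented in OSKM (28.99%), and OSKM B12 peaks filled 11018 of their 13504 breaks in full (81.6%, 80.9 to 82.2%). Of 13639 large OSKM B12 domains, 3819 were fragmented in OSKM (28.0%), and MEF B12 peaks filled 84.8% of their breaks and MEF peaks 76.98%. In contrast, 419 of the MEF B12 domains were fragmented in MEF (3.04%) and 261 in OSKM B12 (1.89%). These sets share domains with the 3270 above and are not independent of them.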
